A study of Canis lupus familiaris with 8 samples.

Results

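The miR-188 cluster is a group of neighbouring microRNA (miRNA) genes, and its mature products were described here in canine serum. The members were all names on the array that stand for miR-188, miR-362, miR-500, miR-501, miR-502, miR-532 or miR-660, without passenger strand (star) names. This rule took 14 of the 1224 miRNA names, 6 of the 289 canine names (prefix cfa) and 8 of the 935 murine names (prefix mmu). The cluster was chosen by a measured value, the lower level of cfa-miR-188 in dogs with dilated cardiomyopathy (DCM). The difference of each member between DCM and control is therefore given as a description with its error and without a p-value, and where members are counted against the limits of the study's methods, that count is a description too. The question was whether the neighbours of miR-188 shared its lower level.

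miRNAs are short RNAs that are cut from hairpin precursors and lower the output of messenger RNAs they pair with, mainly through the seed near their 5′ end. Hairpins that lie close together are often transcribed as one primary transcript, and each of them is then processed and degraded on its own, so that mature products of one transcript can differ in level. In mammals the miR-188 cluster lies on chromosome X within introns of CLCN5, which encodes a chloride/proton exchanger of endosomes. miRNAs in serum are protected in vesicles and protein complexes and come from many tissues and from blood cells.

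The samples were serum of 8 client-owned adult Doberman Pinschers, 7 to 11 years old by the sample labels, although a younger animal is listed among the diseased dogs in the methods of the study. The DCM group comprised 4 dogs (labelled DoCM5 to DoCM8) with DCM, a disease of the heart muscle with a dilated left ventricle and arrhythmia, and the control group comprised 4 healthy dogs (labelled Con1 to Con4). The dogs with DCM were under treatment, with pimobendan (an inotrope), an ACE inhibitor and an antiarrhythmic drug (sotalol for some, amiodarone for the others), so that disease and therapy cannot be told apart. Total RNA of each dog was labelled with Cy3 and hybridized to 1 one-colour Agilent array, and each array is 1 dog.

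Each array held 40 features per miRNA name, and 10817 to 14000 features per array were well above background. The arrays shared 1 slide, with the DCM dogs in its first and the control dogs in its second row. Slide row and disease therefore cannot be told apart. The array labelled DoCM5 stood apart, whose correlations with the others across the kept names had a median of 0.924, against medians of 0.957 to 0.968 for the other 7. The study left out the sample it calls DoCM8 and describes that sample as bright, while in these files DoCM5 had the highest median signal. Whether the array labels and the numbers in the study name the same dogs was not settled here, so that the dog left out by the study may be the array labelled DoCM8 or the array labelled DoCM5. The differences between the groups are therefore given on all 8 arrays, without the array labelled DoCM8 and without the array labelled DoCM5. The normalization was fitted again on the 7 arrays of each smaller set, so that values of these sets do not follow exactly from the levels printed for all 8 arrays. Of the erythrocyte names (cfa-miR-451, cfa-miR-16, cfa-miR-144 and mmu-miR-144), all 4 of 4 were kept and had a higher mean in DCM, as had 219 of all 438 kept names (mean glog2 level 11.8 to 12.3 on the DCM arrays and 11.1 to 11.8 on the control arrays). The 2 that passed the limits used below, which 3.88% of all kept names passed, were both listings of miR-144, and cfa-miR-451 and cfa-miR-16 differed by 0.050 and 0.051. Of 7 leukocyte names, all were kept, 4 were higher and 3 lower in DCM and 1 passed, mmu-miR-142-3p with a difference of 1.28 (mean level 7.36 to 7.65 in DCM and 7.12 to 7.58 in control). Their part in the results was not tested. In serum, a smaller contribution of one source and less RNA from each of its cells cannot be told apart.

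In the gene table used here (RefSeq, UU_Cfam_GSD_1.0), the 6 canine genes followed each other on chromosome X in the order MIR532, MIR188, MIR500, MIR362, MIR660 and MIR502, with 0 other genes between them, and all lay within the span of CLCN5. The canine names do not state which arm of the hairpin they measure, and no mature sequence was used here.

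Detection was the first respect in which the members differed. Features counted as kept where 2 or more arrays of a group showed them well above background, and a name needed at least 1 kept feature. All 6 canine members were kept, against 156 of the 289 canine names, and 3 of the 8 murine members were kept, against 282 of the 935 murine names. These were mmu-miR-188-5p, mmu-miR-500 and mmu-miR-532-3p. All 40 features were well above background on every array for cfa-miR-188, cfa-miR-502, cfa-miR-660 and mmu-miR-188-5p. For cfa-miR-532 this held for 38 to 40 features.

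The dimmer members rested on fewer features. cfa-miR-500 had 20 to 40 features well above background and 33 kept, and mmu-miR-500 had 16 to 32 and 26 kept. cfa-miR-362 was well above background in 40 features on DoCM5, in 0 on DoCM6, DoCM7, DoCM8 and Con2, in 3 on Con1, in 7 on Con3 and in 1 on Con4, so that its value rested on 2 kept features. mmu-miR-532-3p had 20 such features on DoCM5 and 1 to 10 on the other arrays, with 12 kept. Features well above background were thus most numerous on DoCM5 for both names.

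The other 5 murine members, mmu-miR-188-3p, mmu-miR-362-3p, mmu-miR-362-5p, mmu-miR-501-3p and mmu-miR-501-5p, were not kept. At most 2 of their features were well above background on an array, except mmu-miR-362-5p on DoCM5. The mean signal of mmu-miR-362-5p over its 40 features was 6.49 on DoCM5 and 0.26 to 1.12 on the other arrays, and that of the other 4 names lay between -0.33 and 2.52 on all arrays. The passenger strand mmu-miR-500*, the single star name of these hairpins on the array, had 0 features well above background on any array. The canine listing had no miR-501.

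**Figure D1:**
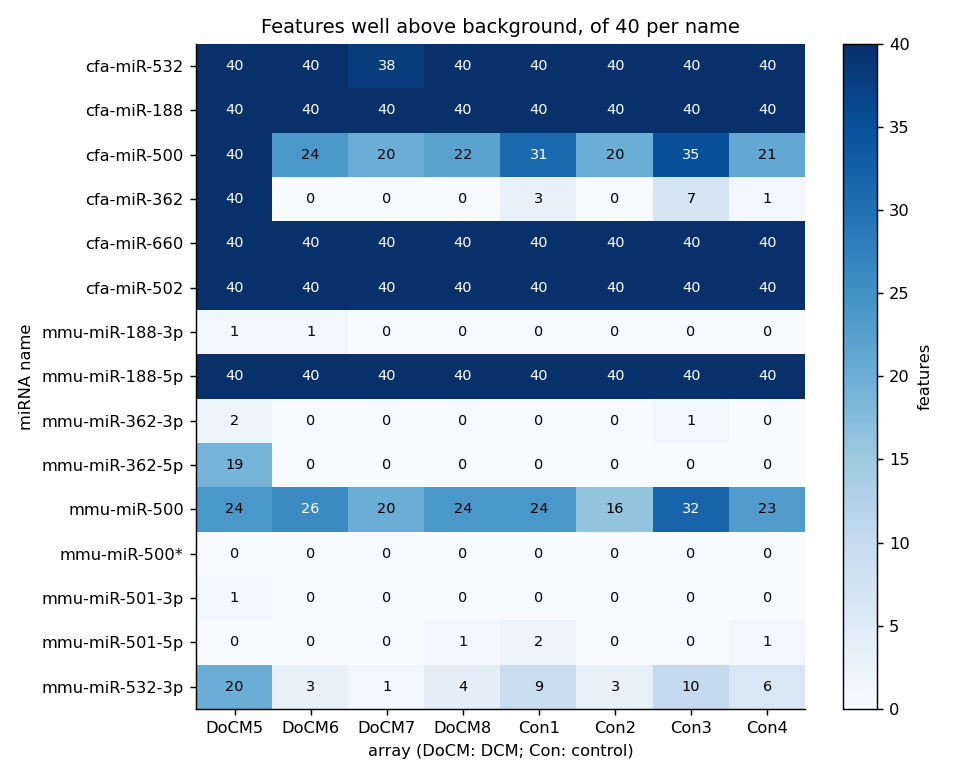
Number of features well above background, of 40 per name, for each member and for mmu-miR-500* (rows) on each of the 8 arrays (columns; DoCM, DCM; Con, control). Bright members fill the scale on every array, while cfa-miR-362 reaches 40 on DoCM5 and at most 7 elsewhere.

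Levels are given as glog2, a log2-like scale after variance stabilizing normalization of the mean signal of the kept features, and a difference on it approximates a log2 fold change at high signals. Levels of different names depend on their probes. Where names were subtracted on the same array, only the change of that difference between arrays was read.

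miR-188, best known as a regulator of bone marrow stromal cell fate, defined the cluster. The level of cfa-miR-188 was 5.84, 6.50, 6.50 and 6.73 on DoCM5, DoCM6, DoCM7 and DoCM8. On Con1, Con2, Con3 and Con4 it was 7.18, 7.78, 7.34 and 6.70. The groups met at DoCM8, which lay just above Con4, and the other 3 DCM arrays lay below all control arrays. The DCM mean was 6.39 ± 0.38 and the control mean 7.25 ± 0.44 (SD, n = 4 each), a difference of -0.86 (standard error 0.32) or 1.81-fold lower in DCM. This was the value that led to the choice of the cluster, and it ranked 11 from the lowest of 438 kept names. The difference was -0.99 (standard error 0.36) without DoCM8 and -0.66 (standard error 0.26) without DoCM5. The groups did not overlap in either set. Without DoCM5 this held only once the normalization was fitted again. DoCM8 and Con4, which met in that of all 8 arrays, are both in that set.

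Every DCM array lay below every control array for 1.14% of the 438 kept names on all 8 arrays, for 1.6% without DoCM8 and for 5.94% without DoCM5. The wider share without DoCM5 stands beside the absence of overlap of cfa-miR-188 in that set. Both canine probes of miR-188 gave the lower level, with differences of -0.79 and -0.92. They hold the same features as the level above, so this is no separate support for the value that led to the choice.

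The murine name mmu-miR-188-5p comes from the same hairpin and is measured by other features of the same arrays. Whether the canine name stands for the same arm is not given by the names. Its level was 5.28, 6.72, 6.79 and 6.58 on DoCM5 to DoCM8. Values on Con1 to Con4 were 6.78, 6.87, 6.82 and 6.77. The control arrays lay close together (SD 0.046) and DoCM5 was far below all others. All 4 DCM arrays lay below the control mean and 3 of 4 below all control arrays, as for cfa-miR-188, with DoCM6 and DoCM8 much closer to the controls than DoCM5. The difference was -0.47 (standard error 0.35) on all 8 arrays and -0.56 (standard error 0.40) without DoCM8, and it shrank to -0.11 (standard error 0.17) without DoCM5. The 4 murine probes gave differences of -0.51, -0.50, -0.46 and -0.40. The size of the difference thus rested mainly on the array labelled DoCM5 for the murine listing, and less so for the canine listing.

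**Figure D2:**
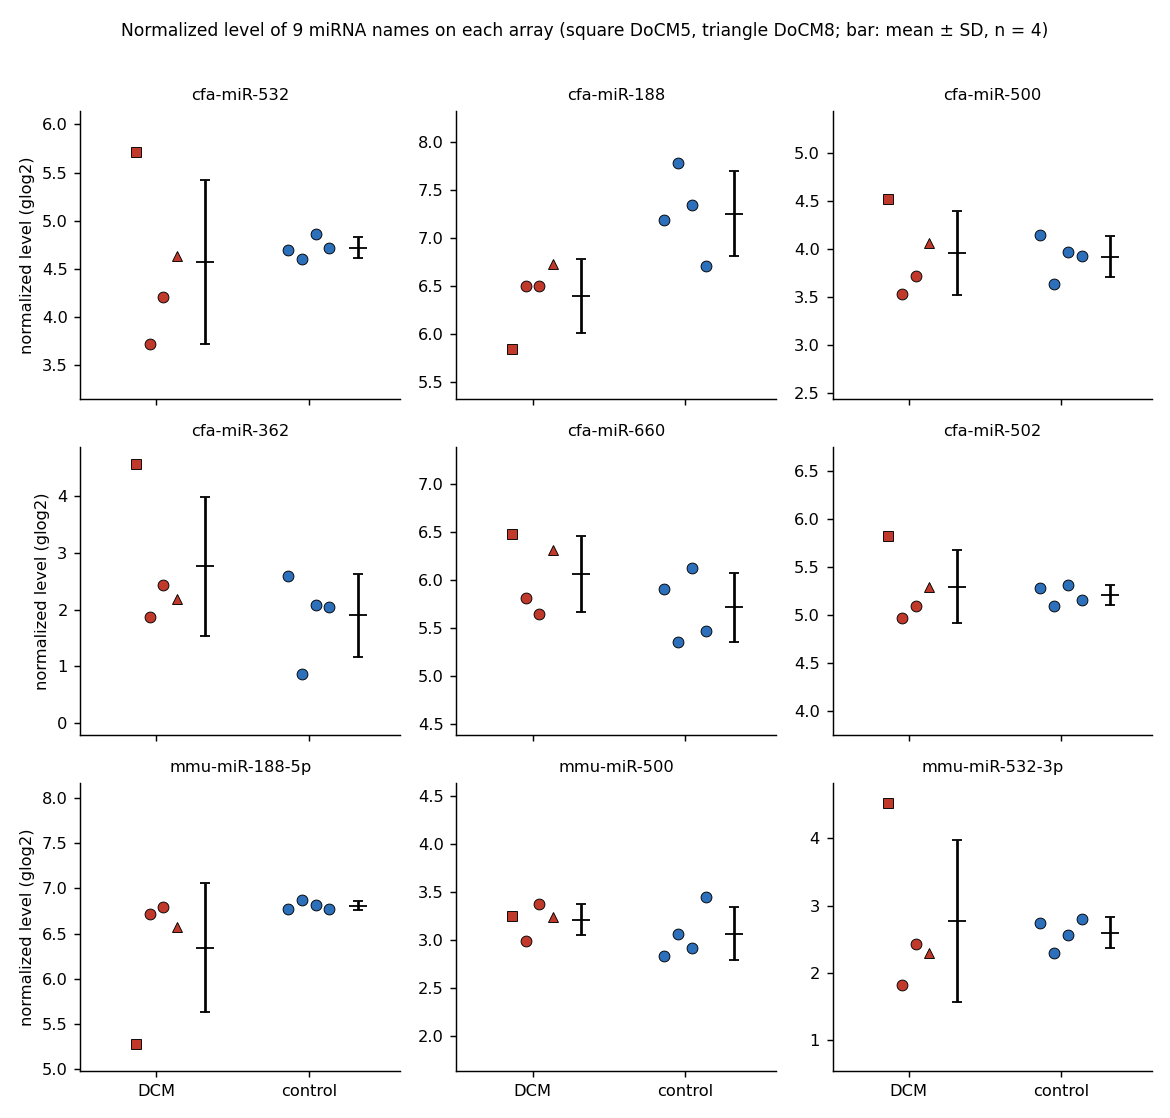
Normalized level (glog2) of the 9 kept members on each DCM array (red; square, DoCM5; triangle, DoCM8) and control array (blue), with the mean ± SD of each group (n = 4). cfa-miR-188 lies lower in DCM apart from a meeting of DoCM8 (6.73) and Con4 (6.70), and for cfa-miR-362, cfa-miR-532 and mmu-miR-532-3p the square of DoCM5 stands far above the rest.

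The neighbour on one side of miR-188 is miR-532, whose 5p arm is known as a regulator of the transcription factor RUNX3 in melanoma. The level of cfa-miR-532 was 5.72, 3.72, 4.20 and 4.63 on DoCM5 to DoCM8. The control arrays, Con1 to Con4, gave 4.70, 4.61, 4.86 and 4.71. DoCM5 lay above all control arrays, DoCM6 and DoCM7 below all of them and DoCM8 among them. The difference of -0.15 (standard error 0.39) was smaller than the spread of the DCM arrays (SD 0.85). Without DoCM8 it was -0.19 (standard error 0.45). Without DoCM5 it was -0.48 (standard error 0.22), the 3 DCM arrays did not overlap the 4 control arrays, and the limits described below were not passed. Among the 5 neighbours, cfa-miR-532 was the only one without overlap in any of the 3 sets of arrays, in a set where 26 of 438 names (5.94%) were lower and 11 higher in DCM without overlap.

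The neighbour on the other side is miR-500, once proposed as a serum marker of liver cancer. The level of cfa-miR-500 was 4.52, 3.53, 3.72 and 4.06 on DoCM5 to DoCM8. Con1 to Con4 were at 4.15, 3.64, 3.97 and 3.93. The groups overlapped, with DoCM5 highest and DoCM6 lowest, and the difference was 0.037 (standard error 0.29). It was -0.0071 (standard error 0.35) without DoCM8 and -0.14 (standard error 0.19) without DoCM5, so that its sign changed with the arrays used.

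Of the 2 probes of cfa-miR-500, 1 had all of its 20 features well above background on every array and a difference of 0.0094. The other had 0 to 20 such features and a difference of 0.23. mmu-miR-500 was 3.25, 2.99, 3.37 and 3.24 on DoCM5 to DoCM8, and 2.83, 3.07, 2.92 and 3.45 on Con1 to Con4. Its groups overlapped as well, and its difference was 0.14 (standard error 0.26), 0.13 (standard error 0.32) without DoCM8 and 0.089 (standard error 0.19) without DoCM5.

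miR-362, whose 5p arm is known to act on the deubiquitinase CYLD, comes next in the gene order. The level of cfa-miR-362 was 4.57, 1.87, 2.44 and 2.18 on DoCM5 to DoCM8, and only DoCM5 of these was called above background. On Con1 to Con4 it was 2.60, 0.86, 2.08 and 2.05, of which 2 arrays were called above background. The difference of 0.87 (standard error 0.56) stayed under the SD of DCM, 1.23, and most of it went with DoCM5. It was 1.08 (standard error 0.62) without DoCM8 and 0.18 (standard error 0.29) without DoCM5. With 5 of its 8 arrays not called above background, no fold change is given for it.

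miR-660, known for its action on MDM2 in lung cancer cells, follows in the gene order. The level of cfa-miR-660 was 6.48, 5.81, 5.65 and 6.31 on DoCM5 to DoCM8. Values on Con1 to Con4 were 5.91, 5.36, 6.12 and 5.48. The 2 highest values were DCM arrays, and the groups overlapped. The difference was 0.35 (standard error 0.30), the opposite sign to that of cfa-miR-188, and it was 0.25 (standard error 0.35) without DoCM8 and 0.20 (standard error 0.24) without DoCM5. Both probes of cfa-miR-660 gave 0.35.

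miR-502, whose 5p arm is known to pair with the message of the histone methyltransferase SET8, is the last in the gene order. The level of cfa-miR-502 was 5.83, 4.97, 5.09 and 5.29 on DoCM5 to DoCM8. The control arrays, Con1 to Con4, gave 5.28, 5.09, 5.31 and 5.15. The control arrays spanned a narrow range (SD 0.10), and DCM arrays lay on both sides of it. The difference was 0.082 (standard error 0.28), 0.070 (standard error 0.33) without DoCM8 and -0.092 (standard error 0.17) without DoCM5.

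mmu-miR-532-3p, the 3p arm of the miR-532 hairpin in the murine listing, was 4.53, 1.83, 2.43 and 2.30 on DoCM5 to DoCM8. Con1 to Con4 were at 2.74, 2.29, 2.57 and 2.80. DoCM5 was far above all other arrays, DoCM6 was the lowest array, and DoCM7 and DoCM8 lay within the control range. Called above background were 1 DCM array and 3 control arrays. The difference of 0.17 (standard error 0.50) became 0.33 (standard error 0.55) without DoCM8 and -0.30 (standard error 0.19) without DoCM5.

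**Figure D3:**
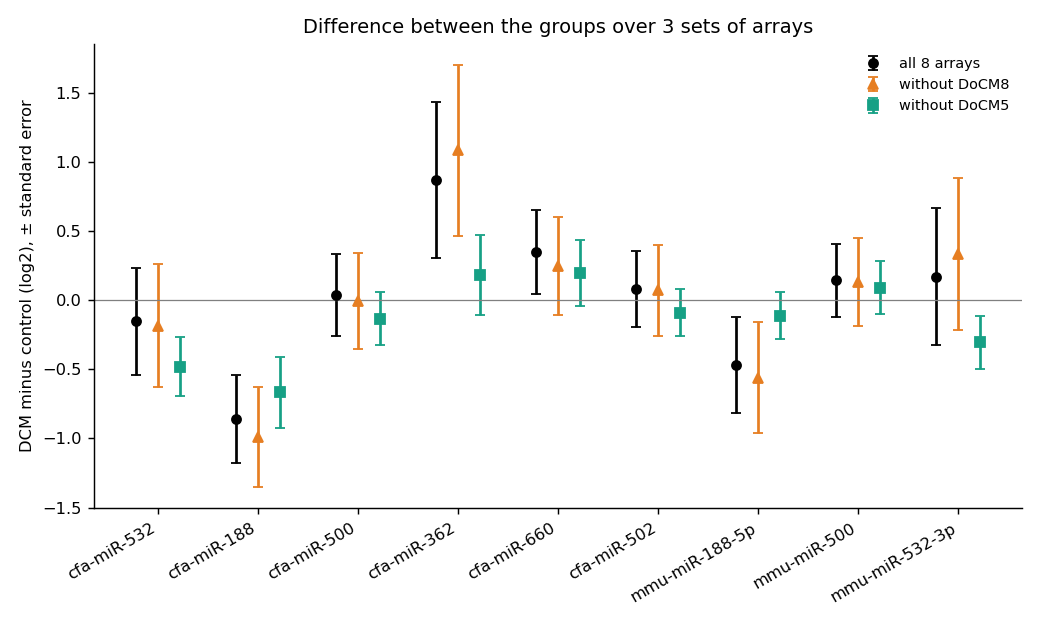
Difference of DCM minus control (log2 scale, ± standard error from limma) for the 9 kept members on all 8 arrays (black), without DoCM8 (orange) and without DoCM5 (green). cfa-miR-188 is below 0 by more than its standard error in each set, cfa-miR-660 is above 0 in each set, within its standard error where DoCM8 or DoCM5 is left out, and cfa-miR-500 and cfa-miR-502 change side.

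Considered as a list, the neighbours did not show a lower level in DCM on all 8 arrays. Of the 5 canine neighbours, 1 had a mean below and 4 a mean above that of the control group, with a median difference of 0.082, against 0.066 over the 156 kept canine names and -0.00067 over all 438 kept names. Without DoCM8, 2 of 5 were lower and the median was 0.070. Without DoCM5, 3 of 5 were lower and the median was -0.092, against -0.014 over the kept canine names. The sign of the median thus turned when DoCM5 was left out. With cfa-miR-188 included, the median of the 6 canine members was 0.059, 0.031 and -0.11 on the 3 sets. The 3 kept murine members had medians of 0.14, 0.13 and -0.11.

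The limits of the study's methods, a limma p under 0.05 with a fold change over 1.5, were passed by 17 of the 438 kept names on all 8 arrays (3.88%), 8 higher and 9 lower in DCM. They were passed by 12 (2.74%) without DoCM8 and by 19 (4.34%) without DoCM5. Of the 9 kept members, 1 was among them in each set, and it was cfa-miR-188, for whose level the cluster had been chosen. It did not pass without Con2 (-0.68), with 75th percentile scaling over all names (-0.57) or with normexp on the median signal and quantile normalization (-0.55). None of the 5 canine neighbours and none of the 3 murine members passed in any of the 3 sets. With the slide column, which holds 1 DCM and 1 control array each, as a block on all 8 arrays, 18 names passed and cfa-miR-362 was among them (0.87, standard error 0.37). After Benjamini-Hochberg adjustment over all names, 0 names passed at 0.05 in limma, and the smallest adjusted p was 0.399 on all 8 arrays (18 names at an unadjusted p under 0.05), 0.997 without DoCM8 (12 names) and 0.308 without DoCM5 (30 names).

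Other kept canine miRNAs with genes on chromosome X served as a further comparison. Of these 15 names, 3 were lower and 12 higher in DCM on all 8 arrays, with a median difference of 0.067 and 0 past the limits. Without DoCM8 these counts did not change, and the median was 0.11. Without DoCM5, 11 of 15 were lower, with a median of -0.17 and 0 past the limits. The differences of these names ran from -0.38 to 0.48 on all 8 arrays, and 4 of the 5 neighbours of miR-188 lay within that range, with cfa-miR-362 above it.

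The level of cfa-miR-188 was then set against each neighbour on the same array, which removes any factor that shifts both names alike. The difference of cfa-miR-188 minus cfa-miR-660 was -0.64, 0.69, 0.84 and 0.42 on DoCM5 to DoCM8. On Con1 to Con4 it was 1.27, 2.42, 1.21 and 1.23. Every DCM array lay below every control array, and the group means differed by -1.21. For cfa-miR-502 the difference was 0.014, 1.53, 1.40 and 1.44 on the DCM arrays, and 1.90, 2.69, 2.02 and 1.55 on the control arrays, again without overlap and with means that differed by -0.94. The means differed by -1.24 and -1.06 without DoCM8, and by -0.86 and -0.57 without DoCM5. These separations are descriptions, since cfa-miR-188 had been chosen for its lower level in DCM. On all 8 arrays, 20.4% of the 437 other kept names separated from it in the same way.

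Against the closest neighbours the groups overlapped. cfa-miR-188 minus cfa-miR-532 ran from 0.12 to 2.78 in DCM and from 1.99 to 3.18 in control, and the means differed by -0.71, by -0.80 without DoCM8 and by -0.18 without DoCM5. Against cfa-miR-500 the range was 1.32 to 2.97 in DCM and 2.78 to 4.14 in control, and the means differed by -0.90, by -0.98 without DoCM8 and by -0.53 without DoCM5. Against cfa-miR-362 the groups overlapped with means that differed by -1.73, or by -2.07 without DoCM8, sizes that rest on values near background on 5 of 8 arrays. In the normalization of the 7 arrays without DoCM5 they differed by -0.85 and the groups did not overlap, while in that of all 8 arrays DoCM6 (4.63) lay above Con1 (4.59). A lack of overlap against cfa-miR-188 was not rare among other names. Of the 437 other kept names, 20.4% gave differences to cfa-miR-188 with every DCM array below every control array on all 8 arrays, 31.4% did so without DoCM8 and 23.3% without DoCM5. With mmu-miR-188-5p in place of cfa-miR-188, the groups overlapped against all 5 neighbours in each of the 3 sets of arrays.

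**Figure D4:**
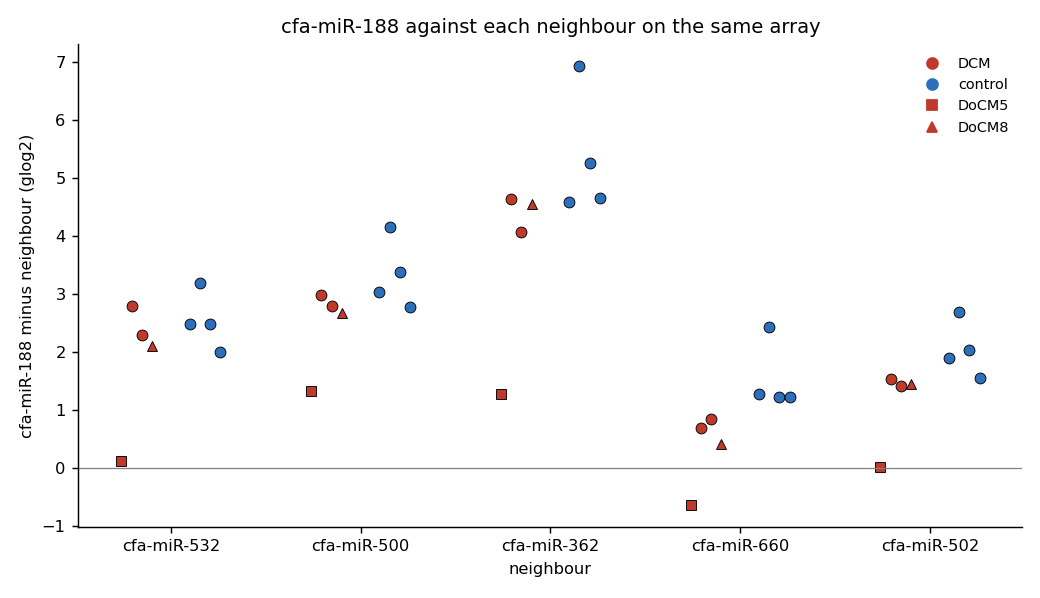
cfa-miR-188 minus each canine neighbour on the same array (glog2), DCM arrays in red (square, DoCM5; triangle, DoCM8) and control arrays in blue. For cfa-miR-660 and cfa-miR-502 every DCM array lies below every control array, and for cfa-miR-532, cfa-miR-500 and cfa-miR-362 the groups overlap. The cluster was chosen for the lower level of cfa-miR-188, and 20.4% of the 437 other kept names separate from it in the same way.

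Several members of the cluster had an extreme level on the array labelled DoCM5. All 5 canine neighbours had their highest level of the 8 arrays on DoCM5, and cfa-miR-188 and mmu-miR-188-5p had their lowest level there. Relative to the mean of the other 7 arrays, cfa-miR-362 was 2.56 higher. The size of this value is set by arrays near background, since 5 of the other 7 did not have the name called above background. cfa-miR-532 was 1.23 higher, with 9.59% of all kept names further up. cfa-miR-660 was 0.67, cfa-miR-500 0.67 and cfa-miR-502 0.66 higher, and 25.8%, 26.5% and 27.4% of all kept names lay further up than these. cfa-miR-188 was lower there, at -1.12, and mmu-miR-188-5p was at -1.48. mmu-miR-532-3p was 2.11 higher and mmu-miR-500 was 0.13 higher. The size for mmu-miR-532-3p is also set by arrays near background, since it was not called above background on DoCM6, DoCM7, DoCM8 and Con2. Levels of miR-188 and of its neighbours thus lay on opposite sides of the other arrays here, by an amount that was common among all names for cfa-miR-660, cfa-miR-500 and cfa-miR-502. The floor of the normalized scale was also higher on DoCM5. Probe 1 of mmu-miR-188-3p had a signal of -0.017 there and read 1.82, against 0.11 to 0.60 on the other arrays. The part of this floor in the levels of the members on DoCM5 was not tested.

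Over all 438 kept names, 29.7% had their highest and 28.3% their lowest value on DoCM5, with a median of -0.045 against the mean of the other arrays and an SD of 0.93 over names. Of the 15 other kept canine names of chromosome X, 10 had their highest value there. Being at either end on this array was therefore common. The scanner signal before normalization was also highest on DoCM5 for the neighbours. Since DoCM5 was the brightest array, this adds little to the normalized levels. The mean signal of cfa-miR-532 was 118 on DoCM5 and 12.3 to 45.6 on the other arrays, and that of cfa-miR-362 was 34.6 on DoCM5 and 1.64 to 4.26 elsewhere. That of cfa-miR-188 was 129 on DoCM5 and 55.0 to 242 elsewhere, so that its low normalized level on DoCM5 appeared only after the calibration of the arrays, in which DoCM5 had the highest median signal (5.09 on the log2 scale against 3.68 to 4.85).

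Some marker lists stood out on DoCM5 and others did not. The erythrocyte and leukocyte lists lay within the range of the other DCM arrays there, at 12.1 and 7.49. The mean level of 5 platelet names (miR-126, miR-221 and miR-222) was 7.18 on DoCM5, 5.96 to 7.18 over the DCM arrays and 6.17 to 6.51 over the control arrays. The 4 kept muscle names had a mean level of 4.32 on DoCM5, the lowest of the DCM arrays (4.32 to 4.98), and of 4.15 to 5.58 on the control arrays. They went different ways there. cfa-miR-499 was at 6.28, above its DCM mean of 5.73. Below theirs were cfa-miR-133b (4.85 against 5.74), mmu-miR-208a-5p (3.51 against 4.20) and cfa-miR-1 (2.65 against 2.88). Between the groups, 2 of the 4 were higher and 2 lower in DCM, and 0 passed the limits. The liver marker cfa-miR-122 was at 4.92 on DoCM5, the lowest of the 8 arrays. Its difference between DCM and control was -0.69 and did not pass the limits. Of the 7 names of heart and skeletal muscle, cfa-miR-133a, cfa-miR-208a and cfa-miR-208b were not kept. The part of these sources in the levels of the cluster on DoCM5 was not tested.

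**Figure D5:**
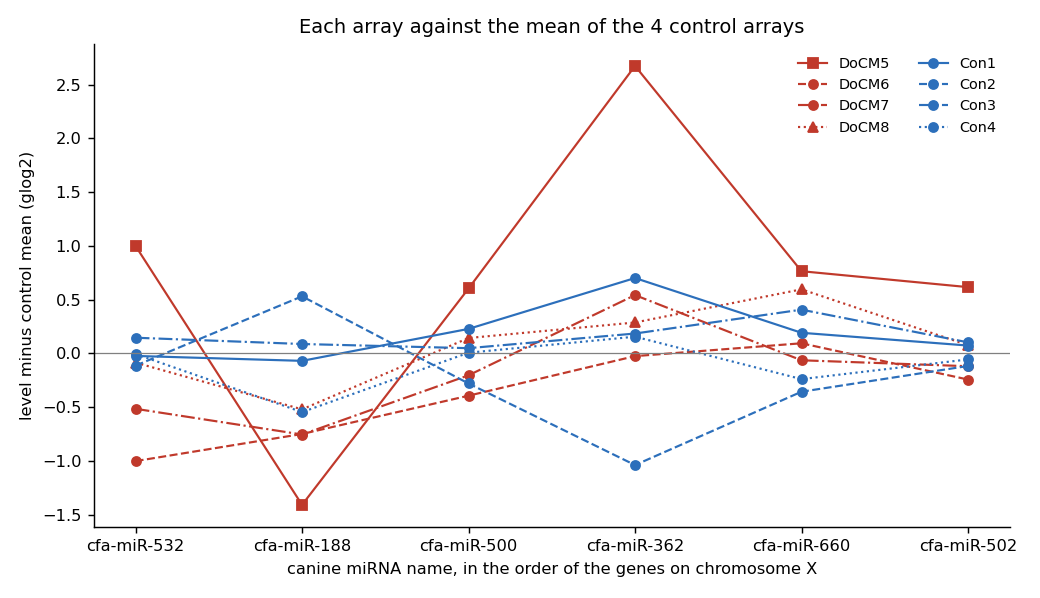
Level of each canine member on each array minus the mean of the 4 control arrays (glog2), in the order of the genes on chromosome X. The line of DoCM5 falls at cfa-miR-188 and lies above 0 at all 5 neighbours, and the other 3 DCM arrays lie below 0 at cfa-miR-188 and at cfa-miR-532.

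Canine and murine names of the same hairpin were compared over the 8 arrays, in 3 pairs with two-sided tests, without knowing whether a pair measures the same arm. cfa-miR-188 and mmu-miR-188-5p had a Pearson r of 0.725 and a Spearman rho of 0.690, given without a p-value because the values of cfa-miR-188 had led to the choice of the cluster. The relation rested on few arrays, since r was 0.369 without DoCM5 and Con2, which lay farthest from the median of cfa-miR-188, and 0.593 without DoCM5 alone. cfa-miR-500 and mmu-miR-500 showed r = 0.072 (exact permutation p = 0.869, adjusted over the 3 pairs 0.869) and rho = -0.071 (exact permutation p = 0.882, adjusted 0.882), and r was -0.37 without the 2 farthest arrays. cfa-miR-532 and mmu-miR-532-3p showed r = 0.903 (exact permutation p = 0.00449, adjusted 0.0135) and rho = 0.857 (exact permutation p = 0.0107, adjusted 0.0321). Here r fell to 0.381 without DoCM5 and DoCM6. mmu-miR-532-3p was called above background on only 1 DCM array and 3 control arrays, so that its other values lay near background. Groups of 4 arrays are too few for a value within each group, and the group is part of these correlations.

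Among canine members with most features well above background, the pairs of neighbours were also compared over the 8 arrays, a choice made after their values had been seen. These were the 10 pairs among cfa-miR-532, cfa-miR-188, cfa-miR-500, cfa-miR-660 and cfa-miR-502. cfa-miR-500 and cfa-miR-502 had r = 0.945 (exact permutation p = 0.000322, adjusted over 10 pairs 0.00322) and rho = 0.881 (exact permutation p = 0.00724, adjusted 0.0362), and r stayed at 0.880 without the 2 farthest arrays and 0.929 without DoCM5. cfa-miR-532 and cfa-miR-502 had r = 0.929 (exact permutation p = 0.000744, adjusted 0.00372) and rho = 0.905 (exact permutation p = 0.00456, adjusted 0.0362), with 0.681 without the 2 farthest arrays and 0.845 without DoCM5. Both pairs kept a positive r in each of these subsets. Whether probes of one name also bind the RNA of another was not tested, since no sequence was used here.

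For cfa-miR-532 and cfa-miR-500, r was 0.894 (exact permutation p = 0.00392, adjusted 0.0131) with rho = 0.786 (exact permutation p = 0.0279, adjusted 0.0735), and it fell to 0.549 without the 2 farthest arrays. cfa-miR-660 had r = 0.766 with cfa-miR-502 (exact permutation p = 0.0123, adjusted 0.0308) with rho = 0.762 (exact permutation p = 0.0368, adjusted 0.0735), and 0.608 without the 2 farthest arrays. With cfa-miR-500 its r was 0.745 (exact permutation p = 0.0318, adjusted 0.0636) with rho = 0.762 (exact permutation p = 0.0368, adjusted 0.0735). With cfa-miR-532 its r was 0.541 (exact permutation p = 0.163, adjusted 0.271) with rho = 0.524 (exact permutation p = 0.197, adjusted 0.328). Without DoCM5 alone, r of cfa-miR-660 was 0.630 with cfa-miR-502, 0.557 with cfa-miR-500 and 0.158 with cfa-miR-532. That of cfa-miR-532 with cfa-miR-500 was then 0.758.

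The pairs with cfa-miR-188 had r from -0.51 to -0.22 and rho from -0.31 to 0.048, again without a p-value. The negative r rested on few arrays. Without the 2 farthest (DoCM5 with DoCM6 or Con2), r of cfa-miR-188 was 0.491 with cfa-miR-532, 0.701 with cfa-miR-500, 0.444 with cfa-miR-660 and 0.810 with cfa-miR-502. Without DoCM5 alone, r of cfa-miR-188 was 0.588 with cfa-miR-532, 0.119 with cfa-miR-500, 0.326 with cfa-miR-502 and -0.19 with cfa-miR-660. Arrays share a group and a position on the slide in all of these pairs.

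The names with the pattern most like that of cfa-miR-188 were not among its neighbours. By Pearson r over the 8 arrays, the 3 most similar of the 429 kept names outside the cluster were mmu-miR-5100 (r = 0.904, rho = 0.929), mmu-miR-3102-5p.2 (r = 0.888, rho = 0.762) and mmu-miR-5109 (r = 0.876, rho = 0.881). Their differences between DCM and control were -0.76, -0.57 and -1.09. These are descriptions without a test, since the group is part of the likeness. For mmu-miR-188-5p, 16 of the 429 names had a higher r with cfa-miR-188. For the 5 canine neighbours, r with cfa-miR-188 was -0.80 to -0.22, and 279 to 424 of the 429 names had a higher r. These ranks were computed on all 8 arrays and rest on DoCM5, without which r was positive for 3 of the 4 neighbours compared above. The lowest r is that of cfa-miR-362, which was not called above background on 5 of 8 arrays.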

How the data were processed

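Serum RNA of 8 dogs was measured on 8 arrays, 4 per group by the labels. The authors deposited the background-subtracted intensity of every feature and the detection flags of Agilent Feature Extraction 10.7.3.1, without normalization between arrays. The series' value table held the same intensity for all 51124 features of each array (within a relative 1e-05; column medians 0.937 to 1.32) and was not used further. No column of other samples was found.

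Control features and features flagged as outliers were left out. The mean intensity per name over kept features was normalized on all 8 arrays, and again on the remaining 7 where an array was left out, in an own implementation of vsn, with an offset and a scale fitted per array before the arsinh step (trimmed fit, quantile 0.9, 5 slices, 7 iterations). A name with 50% or more of its kept features well above background was called above background. Over all names, limma 3.58.1 in R 4.3.3 was used with numpy 2.4.6, pandas 2.3.3, scipy 1.17.1 and matplotlib 3.10.9. The steps were tested on simulated data. Replicates are separate dogs, and their number limits the precision.

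The members, the lists and the tests were chosen with earlier results of these data known. All members are named. Other names come from the lists of markers and of chromosome X, or are the 3 most like cfa-miR-188. A planned list of names with a shared seed could not be made. All 156 kept canine names matched the gene table, whose build differs from that in the file headers, so that it gave names and gene order only. Alternatives covered the arrays used, normalization, background correction, averaging, filters, slide column and array weights.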

Additional observations from a re-analysis of the deposited data

Results flagged for a closer look

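In the DCM group, mmu-miR-188-5p had a level of 5.28 on the array labelled DoCM5, and the gap to the nearest of the other 3 DCM arrays was 0.858 of the range of the group, above the critical value of Dixon's test at 95% for 4 samples. The canine listing was not singled out in this way. Among 18 groups of 4 arrays examined (9 kept members in DCM and in control), this was 1 group, and chance alone gives about 1 in 20, or 0.9 of 18. The share of all kept names flagged in this way is not given here. Of all kept names, 28.3% had their lowest value on DoCM5.

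mmu-miR-362-5p was not kept by the filter and is part of no comparison. On the array labelled DoCM5, 19 of its 40 features were well above background, against 0 on each of the other 7 arrays, the 4 control arrays among them. These features belonged to 2 of its 4 probes, with up to 9 and 10 of 10 features. The canine listing, cfa-miR-362, had 40 of 40 features well above background on the same array.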

How the results depend on the processing

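Each of the 8 arrays was left out in turn and up to 11 other settings were tried. cfa-miR-188 was lower in DCM in 19 of 19 alternatives (differences of -1.06 to -0.55), a description of the value that chose the cluster. It did not pass the limits without Con2 (-0.68) or with 75th percentile scaling over all names (-0.57). Nor did it pass with normexp on the median signal and quantile normalization (-0.55), a setting chosen after seeing the data. cfa-miR-660 was higher in 19 of 19, cfa-miR-362 in 17 of 17 with sizes from 0.13 to 1.19, and mmu-miR-188-5p lower in 19 of 19 (-0.59 to -0.11). The sign turned in 5 of 19 for cfa-miR-500, 3 of 19 for cfa-miR-532, 2 of 19 for cfa-miR-502 and 3 of 18 for mmu-miR-532-3p. For mmu-miR-500 it turned with 75th percentile scaling over the kept names (-0.092).

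The 17 names past both limits became 52 of 1224 without a filter on dim features, 34 with array weights and 3 with normexp, and 12 to 29 with an array left out (29 without DoCM6). The split into higher and lower was 3 and 21 with 75th percentile scaling over the kept names, 11 and 10 over all names, and 7 and 8 with quantile normalization, so that this split depends on the scaling. The 9 members kept became 14 without the filter and 8 to 9 with an array left out. The median difference ran from -0.11 to 0.20 for the canine and from -0.11 to 0.26 for the murine members with an array left out. With array weights it was -0.044 for the canine and -0.21 for the murine members. With 75th percentile scaling it was -0.017 and -0.092 over the kept names, and 0.29 and 0.21 over all names. The correlation of cfa-miR-500 with mmu-miR-500 was -0.13 without DoCM5 (the range with an array left out ran to 0.308), -0.052 without DoCM6 and -0.27 with 75th percentile scaling over the kept names. The same correlation was 0.565 with 75th percentile scaling over all names and 0.496 with normexp on the median signal and quantile normalization. That of cfa-miR-188 with mmu-miR-188-5p was at its lowest, 0.269, with 75th percentile scaling over all names. The cause of these changes was not tested.

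DCM and control dogs could not be paired with each other, because they have no replicate number in common. A block by slide column, which pairs positions and not dogs, brought cfa-miR-362 past the limits and left the calls of the other members as they were. Normexp on the mean signal, although planned, was not run, since that signal is not in the files used here. Signals near background limit cfa-miR-362, cfa-miR-500, mmu-miR-500 and mmu-miR-532-3p.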
